A study of Mus musculus with 9 samples.

Results

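ER+ and ER- luminal chromatin was compared in 6 ATAC-seq libraries of the mouse mammary gland, with 1 library of each cell type from pubertal, adult and mid pregnant glands, out of 9 libraries in the series. The members were all libraries labelled as luminal, and the comparison covered all 124860 regions of the deposited table. ATAC-seq uses the Tn5 transposase to cut and tag accessible DNA, so that a higher value means more tagged fragments at a region. Per the labels, the cells were sorted by FACS from mice of the genotype ERrtTA/TetOCre/rosaYFP. All 9 libraries carried that genotype, whose parts name a tetracycline-responsive transactivator, a Cre recombinase under its operator and a yellow fluorescent reporter. The surface markers or reporter used for sorting, any induction of the transgenes, the ages in days or weeks and the number of mice per library are not stated in the labels. The other 3 libraries hold basal cells at the same stages and took no part in the main tests. They served as a readout of the regions that separated the luminal types. They also entered comparisons of each luminal type with basal cells and alternative fits with all 9 libraries.

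The luminal layer of the mammary duct holds a pair of cell types. ER+ luminal cells sense oestrogen and progesterone and pass these signals on to their neighbours through secreted factors, while ER- luminal cells include the progenitors from which milk-producing alveolar cells arise in pregnancy. The transcription factors FOXA1, GATA3 and the oestrogen receptor are known to act at regulatory DNA of the ER+ cells, and ELF5 is known for its role in the alveolar lineage. Accessible regions away from promoters often include enhancers, which differ between cell types more than promoters do. The deposited table gives each region a running number, with neither coordinates nor gene names. No region could therefore be tied to a gene, no sequence could be shown, and the labels could not be checked against marker genes such as that of the oestrogen receptor.

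The libraries of pregnancy were shallower and one of them stood apart. The luminal libraries held 6679907 to 11328189 reads in regions at puberty and in adults, against 2641254 (ER+) and 3418164 (ER-) in pregnancy. The median region had 10 reads in either luminal pregnancy library. Over regions, none of which is a replicate, the ER+ pregnancy library had a Pearson r of 0.71 with ER+ puberty and 0.70 with ER+ adult. It had 0.77 with ER- pregnancy, 0.74 with ER- puberty and 0.73 with ER- adult (log2 values, 124860 regions). With basal cells r was 0.72 at puberty, above both ER+ values, but 0.68 in adults and 0.69 in pregnancy, below them. ER+ puberty and ER+ adult correlated at 0.91. Values of the ER+ pregnancy library also spanned a narrower range, with a 90th percentile 16.3 times the 10th, against 88.3 and 73.0 times in ER+ puberty and adult. The range was narrower in pregnancy in the other types too. It was 35 times against 61.7 at puberty and 53.7 in adults in ER- cells, and 23 against 39.8 and 59 in basal cells. Depth and value range thus moved with stage. Counts after thinning of reads and after quantile normalization are given below, but the part of depth and value range in the stage differences was not tested. In sorted bulk cells, fewer cells with a region accessible and less accessibility per cell cannot be told apart.

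The luminal types differed at about as many regions in either direction over the 3 stages. Of the 124860 regions, 17143 (13.7%) were called higher in ER+ cells and 14946 (12.0%) lower, with limma on log2(value + 1), stage as a block and a Benjamini-Hochberg adjusted p under 0.05. The median log2 difference was 2.15 for the regions called higher and -1.99 for those called lower, against -0.05 over all regions. Of the regions called higher, 16614 (96.9%) had the same sign at the 3 stages, as had 14619 (97.8%) of those called lower. The test favours regions with a steady difference over the stages, so these shares largely follow from the call. At least 4-fold apart in pregnancy were 25.3% of the regions called higher and 11.2% of those called lower. The regions called higher took 19.9% and 20.6% of the reads in regions of the ER+ puberty and adult libraries, but 11.5% in ER+ pregnancy. They took 3.79% to 4.83% in the ER- libraries. The regions called lower took 28.1% to 28.3% of the reads in the ER- libraries, 13.5% and 13.0% in ER+ puberty and adult, and 18.4% in ER+ pregnancy.

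With 1 library per cell type and stage, the error of this test is the departure of single stages from a constant luminal difference, not a spread between animals. Without the pregnancy pair 29984 regions were called higher and 23856 lower, without the puberty pair 5553 and 5445, without the adult pair 5296 and 6224, and without a trend in the prior variance 0 and 0 (limma, 43439 regions at an unadjusted p under 0.05).

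The regions named next had the largest differences in each direction among those called, with the same sign at the 3 stages and a mean in the higher cell type no lower than that of the median region. Region merged115340 had values of 96.2, 64.1 and 27.1 in ER+ cells at puberty, in adults and in pregnancy, and 2.87, 0 and 1.52 in ER- cells. Every ER+ value lay above every ER- value, and the ER+ values were highest at puberty and lowest in pregnancy (log2 difference 4.72, SE 0.64, n = 3 libraries per type, limma adjusted p = 0.000421). In basal cells it had 8.71, 6.31 and 13.2, so that basal cells lay between the luminal types at each stage.

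Region merged75399 had 104, 156 and 30.5 in ER+ cells and 16.5, 1.49 and 0 in ER- cells, in the same order of stages. The groups did not overlap, and each cell type had its lowest value in pregnancy (log2 difference 4.51, SE 0.63, n = 3 per type, limma adjusted p = 0.000452). The 0 in ER- pregnancy allows up to 3 reads, worth 4.55 units. Basal cells had 11.1, 15.8 and 6.60 there.

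Region merged32629 went the other way, with 1.05, 0 and 6.78 in ER+ cells and 66.0, 51.3 and 51.6 in ER- cells. The ER- values stayed between 51.3 and 66.0, and the ER+ value was highest in pregnancy, where it rested on 4 reads (log2 difference -4.50, SE 0.65, n = 3 per type, limma adjusted p = 0.000544). In basal cells the values were 9.50, 7.89 and 35.2, so that basal cells, too, were highest in pregnancy.

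Region merged77293 had 7.36, 0 and 5.09 in ER+ cells against 118, 72.8 and 60.7 in ER- cells. No ER+ value came near an ER- value (log2 difference -4.46, SE 0.60, n = 3 per type, limma adjusted p = 0.000407). Basal cells had 8.71, 19.7 and 17.6. At each of these 4 regions the basal value lay between the luminal values at the 3 stages, with the exception of merged75399 at puberty, where it was below both.

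**Figure D1:**
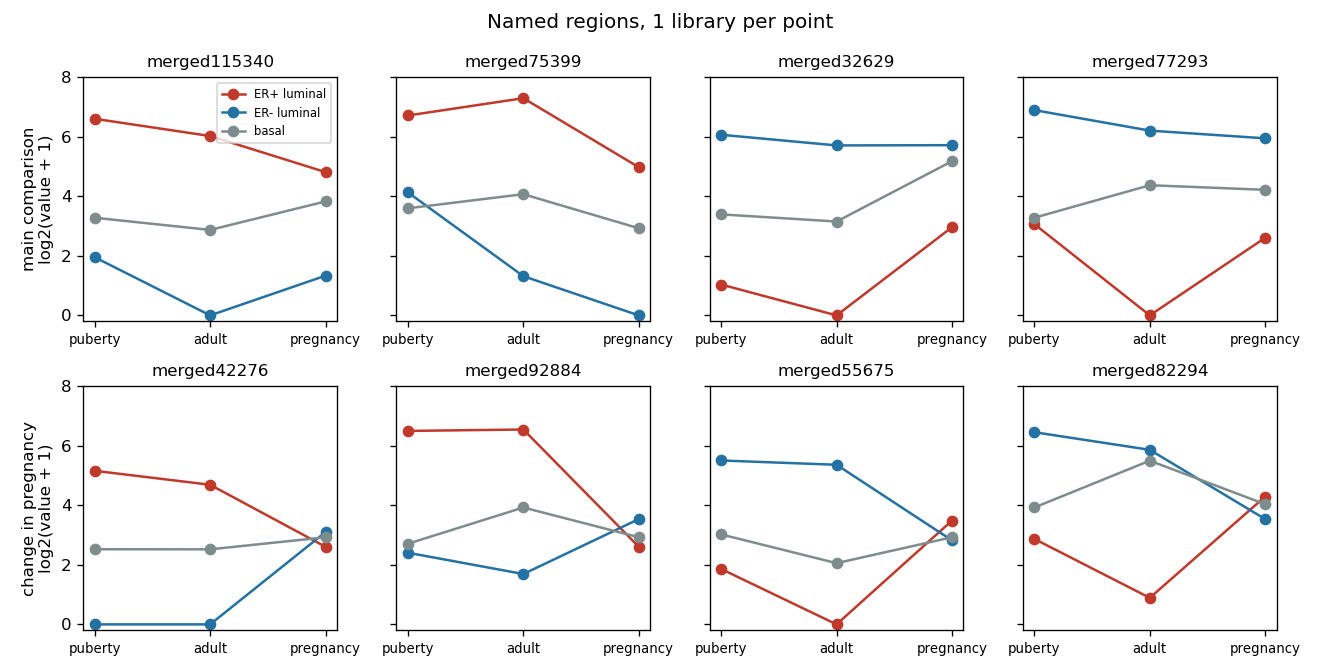
Values of 8 named regions at puberty, in adults and in pregnancy, as log2(value + 1), 1 library per point, for ER+ luminal, ER- luminal and basal cells. In the upper row (largest differences over the 3 stages) the luminal lines stay apart, and in the lower row (largest change of the difference in pregnancy) they meet or cross in pregnancy.

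Basal cells, which the test did not use, resembled ER- cells at most regions called higher in ER+ cells. At 87.7% of these 17143 regions the basal mean of log2 values over the 3 stages was nearer to the ER- than to the ER+ mean, against 62.6% at regions called in neither direction. It lay within 2-fold of the ER- mean at 79.6% of them and within 2-fold of the ER+ mean at 11.8%, against 69.0% and 57.7% at regions called in neither direction. Regions called lower in ER+ cells were divided: the basal mean was nearer to ER- at 58.7%, within 2-fold of ER- at 56.3% and within 2-fold of ER+ at 46.0%, both below the shares at regions called in neither direction. The median basal value at these regions was 24.5, 31.6 and 37.4 at puberty, in adults and in pregnancy, between 46.6, 53.5 and 48.5 in ER- and 7.89, 6.84 and 22.0 in ER+ cells. Regions of ER+ cells were thus mostly low in both other types, while the regions of ER- cells covered a wide range in basal cells.

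The call rate depended on how bright a region was. In the lowest quartile of mean value over the 6 libraries (up to 8.65), 5.34% of regions were called higher and 3.27% lower. The rates were 21.9% and 16.2% in the third quartile (17.4 to 42.0). In the top quartile (above 42.0) the order turned, with 14.7% called higher and 19.1% lower. Low regions hold few reads, with a median of 4 in each luminal pregnancy library in the lowest quartile, so that a difference there may not be detectable at this depth.

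The difference between the luminal types was widest in adults and narrowest in pregnancy. At puberty 15846 regions (12.7%) were at least 4-fold higher in the ER+ library, a difference of log2(value + 1) of 2 or more, and 13031 (10.4%) at least 4-fold lower. In adults the numbers were 20340 (16.3%) and 15590 (12.5%). In pregnancy they were 6870 (5.50%) and 3837 (3.07%). The SD of the difference over all regions was 1.59 at puberty, 1.86 in adults and 1.14 in pregnancy, and 66.0% of regions lay within 2-fold in pregnancy against 48.8% and 46.0% before. These counts describe pairs of single libraries and carry no test. Of the regions at least 4-fold apart, 54.9% were higher in ER+ cells at puberty, 56.6% in adults and 64.2% in pregnancy. The median difference was -0.03, -0.02 and -0.03, in values scaled per library, which cannot show a shift of all regions.

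**Figure D2:**
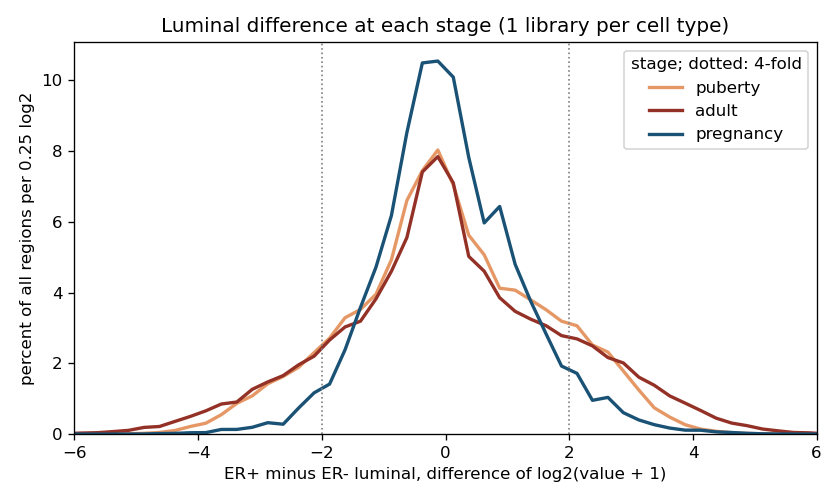
Percent of all 124860 regions per bin of 0.25 in the difference of log2(value + 1), ER+ minus ER- luminal, at each stage, with 4-fold limits dotted. The pregnancy curve (SD 1.14) is narrower than those of puberty (SD 1.59) and adults (SD 1.86), and all are centred near 0.

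Puberty and adults gave much the same luminal differences, and pregnancy a weaker form of them. Across regions the adult difference correlated with that at puberty at a Pearson r of 0.80, with a slope of 0.93. The pregnancy difference correlated with the mean of the earlier differences at 0.48, with a slope of 0.33. In the top quartile of brightness, where the median region had 39 and 55 reads in the ER+ and ER- pregnancy libraries, r was 0.90 and the slope 1.09 between puberty and adults. There r was 0.71 and the slope 0.45 for pregnancy. Slopes and r are across regions of the same libraries and describe these libraries only. The comparisons with basal cells were narrower in pregnancy as well. The SD of ER+ minus basal was 2.01 in adults and 1.28 in pregnancy, with a slope of 0.38 of pregnancy on the earlier stages, and that of ER- minus basal was 1.36 and 1.18, with a slope of 0.47. These comparisons share libraries with the luminal one.

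**Figure D3:**
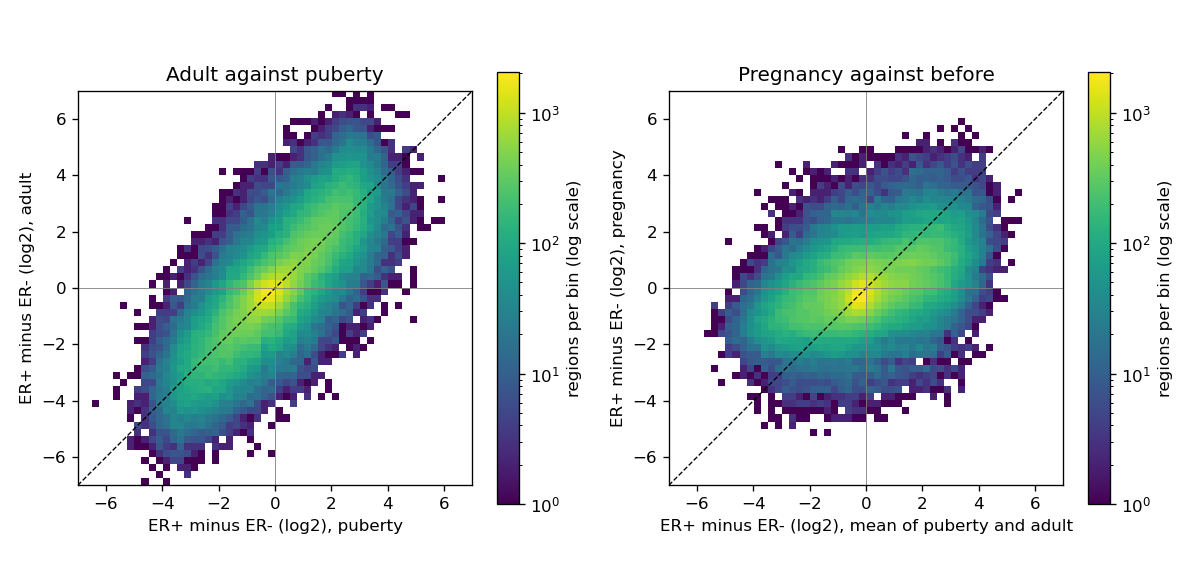
Number of regions (log colour scale) by luminal difference in log2 units, adult against puberty on the left and pregnancy against the mean of the earlier stages on the right, with equality dashed. The left cloud follows the dashed line (slope 0.93), and the right cloud is flatter (slope 0.33).

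Regions were then sorted by stage pattern. At least 4-fold higher in ER+ cells at both puberty and adulthood were 10931 regions. Of these, 2322 (21.2%, or 1.86% of all regions) were at least 4-fold higher in pregnancy as well, and so held at the 3 stages. Another 3610 (33.0%) were 2- to 4-fold higher in pregnancy, 4638 (42.4%, or 3.71% of all regions) lay within 2-fold, and 361 (3.30%) were at least 2-fold lower. The median log2 difference of the 10931 regions was 2.64 at puberty, 3.08 in adults and 1.10 in pregnancy.

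In the other direction 8745 regions were at least 4-fold lower in ER+ cells at both earlier stages. Here 844 (9.65%, or 0.676% of all regions) held in pregnancy, 3318 (37.9%) were 2- to 4-fold lower, 4343 (49.7%, or 3.48% of all regions) lay within 2-fold, and 240 (2.74%) were at least 2-fold higher. Their median log2 differences were -2.76, -3.08 and -0.95. A larger share of the regions of ER+ cells than of those of ER- cells thus stayed 4-fold apart in pregnancy in the deposited values. After quantile normalization the numbers that held were 2229 and 1436, and those only before pregnancy 2603 and 3148. With a pseudocount of 4 the numbers were 746 and 226 that held, and 2735 and 1985 only before.

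**Figure D4:**
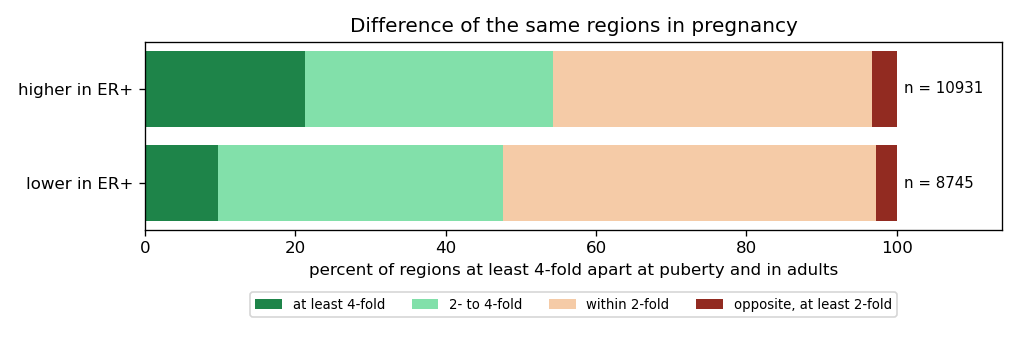
Percent of the regions at least 4-fold higher (10931) or lower (8745) in ER+ cells at both puberty and adulthood, by their difference in pregnancy. The share still at least 4-fold apart is 21.2% for regions higher and 9.65% for regions lower in ER+ cells, and 42.4% and 49.7% lie within 2-fold.

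Pregnancy stood furthest from the other stages. Regions at least 4-fold higher in ER+ cells at both other stages were followed into each stage. At puberty 61.5% of 3773 such regions were also 4-fold higher, in adults 81.7% of 2841 and in pregnancy 21.2% of 10931. For regions lower in ER+ cells the shares were 62.3% of 1354, 77.3% of 1092 and 9.65% of 8745. The regions counted are the same 2322 and 844 each time. The shares therefore depend on how many regions reached 4-fold at each stage. Over all regions the 4-fold shares at puberty, in adults and in pregnancy were 12.7%, 16.3% and 5.50% higher, and 10.4%, 12.5% and 3.07% lower. Reads were also thinned so that 1 read had the same value in the 6 libraries. Of regions 4-fold apart at both other stages, 60.6%, 77.0% and 22.1% of higher and 60.2%, 68.4% and 9.58% of lower ones then also were. Thinning left 2641254 reads in ER+ pregnancy, 3057842 in ER- pregnancy and 3233858 to 3604375 in the other 4, so that total depth was closer but not equal. In the thinned reads 2528 and 909 regions held at the 3 stages, and 4793 and 4788 differed only before pregnancy.

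The reads in pregnancy limit how firmly single regions can be placed. For each region a 95% exact counting interval (Clopper-Pearson) of the ratio of ER+ to ER- values in pregnancy was taken from the reads of both libraries, which covers counting error only. Among regions only different before pregnancy, the interval lay wholly under a 4-fold difference at 41.2% of those higher, or 1911 regions, and at 65.1% of those lower, or 2829 regions. At the others a 4-fold difference in pregnancy was not excluded at this depth. Among all 4638 higher and 4343 lower regions, the interval excluded equal values, on the side of the earlier difference, at 51 (1.1%) and 304 (7.0%). The regions were chosen on the same reads, so these shares describe the depth and carry no test.

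Values of the luminal libraries moved in unlike ways at the regions that differed only before pregnancy. At the 4638 regions higher in ER+ cells, the median ER+ value was 38.4 at puberty, 39.3 in adults and 11.9 in pregnancy. The median ER- value there was 5.02, 3.71 and 10.6. From the mean of the earlier stages to pregnancy the median log2 change was -1.61 in ER+ and 0.96 in ER- cells, against -0.03 and 0.07 over all regions. The values of both luminal types thus came together from both sides. Basal cells had medians of 7.91, 6.31 and 8.80, and a median change of 0.25.

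At the 4343 regions lower in ER+ cells, most of the movement was in the ER+ library. Its median value was 2.63 at puberty, 2.57 in adults and 17.0 in pregnancy, a median log2 change of 2.26, and 93.0% of these regions were at least 2-fold higher in ER+ pregnancy than before. The ER- median was 23.7, 29.0 and 21.2, a median change of -0.33. In basal cells the median was 12.7, 15.0 and 22.0. Because the regions were chosen on the luminal values themselves, part of such a movement follows from the choice, and these medians carry no test.

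At regions that held at the 3 stages the ER+ library moved the same way, but by less. At the 2322 regions that held as higher, the ER+ median went from 47.3 and 50.5 to 28.8, while the ER- median was 5.73, 3.71 and 3.03. At the 844 that held as lower, the ER+ median was 2.63, 2.57 and 6.78, and the ER- median 27.2, 33.4 and 41.0. The median log2 change of ER+ cells was -0.82 and 0.91 in these sets. The sets were sorted by their difference in pregnancy, so the smaller movement follows in part from that choice and carries no test.

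**Figure D5:**
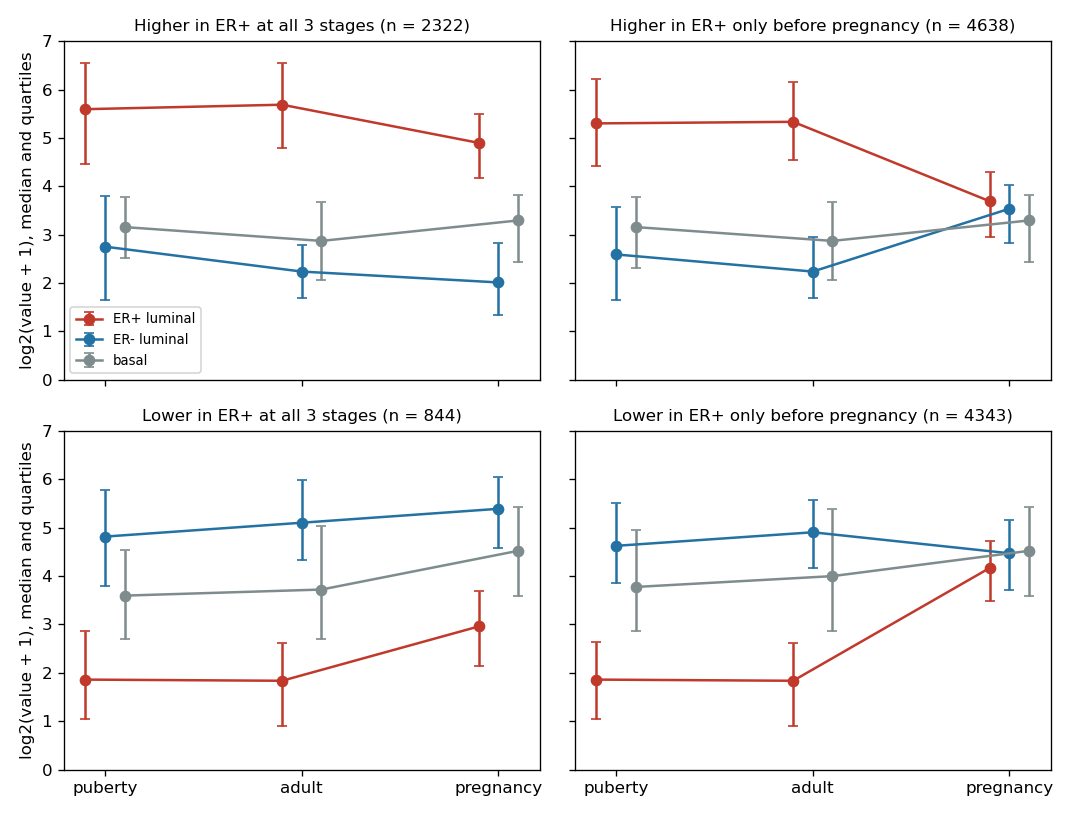
Median and quartiles of log2(value + 1) in the 9 libraries for regions that differed at least 4-fold at the 3 stages (left) or only before pregnancy (right), higher (top) or lower (bottom) in ER+ luminal cells, with small horizontal offsets between cell types. In the right panels the ER+ median meets the ER- and basal medians in pregnancy, at 11.9 for regions higher and 17.0 for regions lower in ER+ cells.

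Basal levels were also set beside the regions that held and those that differed only before pregnancy. Over puberty and adults the basal mean was nearer to the ER- than to the ER+ mean at 92.8% of the regions that held as higher and at 88.7% of those higher only before pregnancy. For regions lower in ER+ cells the shares were 54.5% and 66.4%. The share of all regions was 69.4%. By brightness, 49.6% of the regions higher and 58.9% of those lower in ER+ cells at both earlier stages came within 2-fold in pregnancy in the lowest quartile of mean value, against 31.9% and 27.2% in the top quartile. The share that held was 17.5%, 20.0%, 20.6% and 26.8% from the lowest to the top quartile for regions higher, and 11.6%, 8.64%, 9.48% and 10.2% for regions lower. The median mean over the 6 libraries was 23.8 where regions held and 19.0 where they differed only before pregnancy for those higher, and 18.7 and 16.6 for those lower.

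Differences seen only in pregnancy were few. In 728 regions (0.583%) the ER+ library was at least 4-fold higher in pregnancy and within 2-fold at both earlier stages, and in 662 (0.530%) it was at least 4-fold lower. These regions were faint, with a median mean over the 6 libraries of 6.63 and 8.23, and rested on medians of 9 against 1 and 1 against 9 reads.

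Whether the luminal difference itself changed in pregnancy was tested as the interaction of cell type with pregnancy, against puberty and adults together. With limma 2741 regions (2.20%) had a difference more positive before pregnancy and 1799 (1.44%) one more negative. On simulated reads of unequal depth, with the same dispersion at every region, this test called more unchanged regions than its threshold allows. On the same reads edgeR, DESeq2 and limma with precision weights (voom) did not. The simulation therefore gives no reason to prefer the edgeR counts to those of DESeq2 or voom below. On the recovered reads edgeR called 943 regions (0.755%) more positive and 1410 (1.13%) more negative before pregnancy, of which 936 and 1255 were also called by limma. Among the edgeR calls, 97.3% and 99.9% had the matching sign at both puberty and adulthood, and 567 and 901 lay within 2-fold in pregnancy. A further 357 and 166 had turned to at least 2-fold the other way, and 19 and 343 were still at least 2-fold apart in the earlier direction. At the regions edgeR called, median ER+ values went from 105 at puberty and 99.2 in adults to 18.6 in pregnancy in the positive set, and from 5.26 and 3.42 to 30.5 in the negative set. The regions were called on these same values. The matching signs and the movement of the medians follow in part from the call and carry no test.

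The number of such regions rested on the tool. DESeq2 on the same reads called 2 and 1, limma with precision weights from the reads (voom) 7 and 46, limma with all 9 libraries 194 and 273, and limma on the thinned reads or without a variance trend 0 and 0 (10445 and 21958 regions at an unadjusted p under 0.05). Of the regions only different before pregnancy by fold, edgeR called 426 of 4638 (9.18%) and 828 of 4343 (19.1%), so that most were placed there by the values of single libraries without a passed test. In the test over the 3 stages, 3189 (68.8%) and 3030 (69.8%) of these same regions were called, as were all 2322 and 844 that held. A call over the 3 stages therefore did not separate regions that held from regions that differed only before pregnancy.

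Among the regions with the largest change, merged92884 had 89.4 and 92.4 in ER+ cells at puberty and in adults and 5.09 in pregnancy, from 3 reads. In ER- cells it had 4.30, 2.23 and 10.6. The ER+ values lay far above the ER- values before pregnancy and below them in pregnancy (log2 difference before minus pregnancy 5.41, SE 0.93, limma adjusted p = 0.00391, edgeR adjusted p = 0.00238). Basal cells had 5.54, 14.2 and 6.60.

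Region merged42276 had 34.7, 24.8 and 5.09 in ER+ cells. ER- cells had no read at puberty and in adults and 7.58 in pregnancy, from 5 reads, so that the order of the luminal types turned on a few reads (change 5.42, SE 1.21, limma adjusted p = 0.0130, edgeR adjusted p = 0.0051). Basal values there were 4.75, 4.74 and 6.60.

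In the other direction merged82294 had 6.31, 0.855 and 18.6 in ER+ cells and 86.7, 57.2 and 10.6 in ER- cells. The ER+ value was highest and the ER- value lowest in pregnancy (change -5.04, SE 0.92, limma adjusted p = 0.00452, edgeR adjusted p = 0.00123). There ER- lay below ER+ but within 2-fold, on 7 against 11 reads. Basal cells had 14.2, 44.2 and 15.4 and were highest in adults.

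Region merged55675 had 2.63, 0 and 10.2 in ER+ cells and 44.4, 40.1 and 6.07 in ER- cells. Its values in pregnancy rested on 6 and 4 reads (change -5.16, SE 1.13, limma adjusted p = 0.0116, edgeR adjusted p = 0.011). Basal values were 7.12, 3.16 and 6.60. None of these 4 changes passed with DESeq2 or voom.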

How the data were processed

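Build GRCm38 (mm10) and the tools MACS2 2.1.0.20151222, Bowtie2 2.2.6, Picard and SAMtools are named in the submitters' processing notes. The labels list total RNA as molecule, while their protocols describe Tn5 tagging of nuclei. How peaks were merged, whether cuts were shifted and how values were normalized is not stated there. The authors' deposited signal holds 1 value per region and library. Within 0.02 reads, 100% of the values were whole multiples of 1 step per library (0.5258 to 2.199 units over the 9 libraries), taken as the value of 1 read, which gave the recovered reads. The letters p and m in the column names were read as plus and minus.

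The test was limma 3.58.1 (R 4.3.3) on log2(value + 1) over the 6 luminal libraries, with stage as a block, a trend in the prior variance, no filter, and p adjusted over 124860 regions. This leaves 2 residual degrees of freedom. The interaction with pregnancy leaves 1, and assumes equal precision of the shallower pregnancy libraries. The labels do not say whether libraries came from separate animals. The scripts were tested on simulated data. edgeR 4.0.16 and DESeq2 1.42.0 were run on the recovered reads, with the other alternatives given in the closing section, of which voom was added after seeing the data. Fold changes on this scale understate low regions. Regions named for the comparison over the 3 stages were called and had the same sign at the 3 stages. Their mean in the higher type was at or above 17.36, the median region mean, and the 2 largest differences each way are given. Regions named for the interaction were called, with the same sign and at least 4-fold differences at both earlier stages. They were within 2-fold in pregnancy, where the sign was free to turn. Their mean in the higher type over the earlier stages was at or above 17.36, and the 2 largest changes each way are given. The comparison and its rules were chosen with earlier results of these data known. Intervals and floors from reads hold for counting error alone, as PCR can copy a molecule.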

Additional observations from a re-analysis of the deposited data

Results flagged for a closer look

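The luminal difference before pregnancy differed from that in pregnancy at 2741 regions more positive before and 1799 more negative before, by the limma interaction test. The named regions among them were merged42276 (5.42), merged92884 (5.41), merged55675 (-5.16) and merged82294 (-5.04), given as the log2 difference before minus that in pregnancy. The pregnancy libraries were shallower, and with reads thinned so that 1 read had the same value in the 6 libraries the same test called 0 regions (limma, 10445 at an unadjusted p under 0.05).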

How the results depend on the processing

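Over the 3 stages, leaving out 1 stage pair gave 5296 to 29984 regions called higher and 5445 to 23856 lower in ER+ cells. Without stage in the model 10525 were higher and 7578 lower, with the reads thinned so that 1 read had the same value in each library 10601 and 9206, and with no variance trend 0 and 0. Only regions at or above the median mean gave 10770 higher, from fewer regions tested. The 4 regions named for this comparison kept their sign and passed in every alternative except that without a variance trend, where their adjusted p was 0.0544.

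The interaction with pregnancy, 2741 more positive and 1799 more negative before (60.4% positive), gave 194 and 273 with all 9 libraries (41.5%), 4838 and 3008 with a pseudocount of 4, 4699 and 4639 after quantile normalization (50.3%), and 943 positive with edgeR (40.1% of its calls). DESeq2 gave 2 and 1 (66.7%), voom 7 and 46 (13.2%), and 0 and 0 were called on the thinned reads and without a variance trend. The 4 regions named for it kept their sign, with adjusted p up to 0.537. Leaving out a stage pair leaves this test no residual degrees of freedom, so it was not run.

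By fold, the numbers higher and lower at the 3 stages were 746 and 226 with a pseudocount of 4, 1481 and 470 at or above the median mean, and 11866 and 8175 at a 2-fold threshold. The lower number was 1326 with a pseudocount of 0.25 and 1436 after quantile normalization. Only before pregnancy were 2735 and 1985 with a pseudocount of 4, 2514 and 2059 at or above the median mean, and, of higher regions, 2603 after quantile normalization and 7209 at the 2-fold threshold. In all, 30 of the recomputed counts stayed within 1.5 times the main value and 42 did not. The causes were not tested. Depth limits the pregnancy values most, where 1 read was worth 1.695 (ER+) and 1.517 (ER-) units.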

Other observations

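Regions with neighbouring numbers tended to share the direction of the luminal difference. The next-numbered region was also called higher at 22.3% of the regions called higher, against 13.7% of all regions, and also called lower at 21.6% of those called lower, against 12.0%. The next region was called in the opposite direction at 7.42% and 8.79%, against 12.0% and 13.7% of all regions. The correlation of the difference between neighbouring numbers was 0.22 at puberty, 0.21 in adults and 0.10 in pregnancy (124858 neighbours, no test). The labels do not say whether the numbers follow the order of the genome.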
